A study of Mus musculus with 12 samples.

Results

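A set of 9 genes of hepatic sugar metabolism were followed here in mouse liver RNA: Pklr, Pck1, Fbp1, Gys2, Pygl, Slc2a2, Irs1, Irs2 and Khk. They were chosen by name, and all 9 were found among the 57180 genes of the deposited table and among the 19350 genes with enough reads to be tested. RNA was sequenced from 12 livers, 3 each from Het females (Het_F), Het males (Het_M), KO females (KO_F) and KO males (KO_M), and every mouse is named below by its group and number. All 12 mice are described as lacking Csa, the gene annotated as Ercc8, and all had been injected into the brain ventricles as newborns with AAV9-CSA, a vector that carries human CSA under the ubiquitous CBA promoter. The KO mice are the CX mice at their humane endpoint, and the Het mice are AAV-treated littermates of matched age, so that endpoint disease and genotype cannot be told apart. The study describes CX mice as Csa-/- Xpa-/- in one place and writes Csa-/- Xpa+/+ for KO and Csa-/- Xpa+/- for Het in another, so the groups are called KO and Het as in the sample labels. Neither the hour of collection nor the feeding state is given in the sources used here.

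The liver takes up glucose through GLUT2 (Slc2a2) and either burns it through glycolysis, whose last step is the pyruvate kinase encoded by Pklr, or stores it as glycogen through glycogen synthase (Gys2). Between meals it releases glucose from glycogen through glycogen phosphorylase (Pygl) and builds glucose anew through phosphoenolpyruvate carboxykinase (Pck1) and fructose-1,6-bisphosphatase (Fbp1). Fructose enters through ketohexokinase (Khk). Insulin acts on hepatocytes through the adaptor proteins IRS1 and IRS2, and fasting, glucagon and the circadian clock are known to move many of these transcripts within hours.

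Xpa held 3.10 to 6.34 CPM in the Het livers and 0.992 to 1.83 CPM in the KO livers, so no KO liver reached the lowest Het liver. Ercc8 reads were present in every liver, with 5.10 to 8.68 CPM among Het livers and a lowest KO level of 14.8 CPM, so that the genotypes did not overlap (means 7.16 ± 1.40 and 22.9 ± 8.81 CPM, SD, n = 6, log2 fold change 1.62, SE 0.17, adjusted p = 0.000156), and a count per gene does not show which exons its reads come from. CPM here are read counts scaled to a common library total, with TMM scaling of the libraries. The libraries held between 30044812 and 43634073 assigned counts. Hepatocyte markers summed to 73770 to 98170 CPM in Het and 94440 to 156200 CPM in KO livers, and of the 10 markers 2 were called higher and 1 lower. Of 8 sinusoidal endothelial markers 5 were called lower (summed CPM 195.6 to 352 in Het, 133 to 239 in KO), and 2 of 8 stellate cell markers were called lower (249.6 to 454 against 126.4 to 273). Of 9 Kupffer cell and macrophage markers, 5 were called higher (135 to 357 against 185 to 562). None of 6 tested cholangiocyte markers was called (30.4 to 61.6 against 16.2 to 52.2), and 1 of 9 neutrophil and lymphocyte markers was called higher (11.0 to 29.4 against 13.7 to 33.4). Of 3 tested markers of pancreas, muscle, fat and blood only Cela1 was called, lower in KO. Ins1 was at 0 in all 12 livers. Over all genes tested, 12.2% were called higher and 10.2% lower, and the endothelial and macrophage counts stand far above these shares. The stellate count of 2 of 8 is above the lower share too. By sex 3 of the 8 were called lower in females and 2 in males, beside 5.1% and 2.98% of all genes. The part of the marker differences in the results for the 9 genes was not tested. In whole liver RNA fewer cells of a type and less RNA per cell cannot be told apart.

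One library stood apart in the genes of the circadian clock, which were looked at liver by liver after their values were seen. Bmal1, an activator of the clock, was at 27.9 CPM in Het_F_115 and at 1.101 to 3.10 CPM in the other 5 Het livers. Dbp, a clock output factor that peaks at the opposite time of day, was at 0.765 CPM in Het_F_115 and at 81.1 to 112.2 CPM in the other Het livers. The KO livers had 3.40 to 23.9 CPM of Bmal1, above those 5 Het livers without overlap, and 12.1 to 103 CPM of Dbp. The difference log2 Bmal1 minus log2 Dbp was 5.19 in Het_F_115, between -6.47 and -5.09 in the other Het livers, and between -4.93 and 0.209 in the KO livers. The Irs2 and Fbp1 calls are given also without Het_F_115. A fit with this difference as a covariate, added after seeing the data and with Het_F_115 at its highest value, gave log2 fold changes over both sexes of 2.26 for Irs2 (adjusted p = 0.016) and -0.76 for Fbp1 (adjusted p = 0.0101).

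Of the 9 genes, 1 rose and 1 fell in KO livers in the contrast over both sexes. Irs2 rose 3.01-fold and Fbp1 fell to 0.600 of its Het level, whereas the other 7 did not pass the threshold, an adjusted p of 0.05 over all genes tested. Higher calls made up 12.2% of all 19350 genes and lower calls 10.2%, so 1 of 9 in each direction is near the background. The difference was above 0 for 2 of the 9 (Irs2 and Pck1) and below 0 for 7, with a median log2 fold change of -0.30 beside 0.0175 over all genes. Unadjusted p-values were under 0.05 for both of the former and for 3 of the latter, Fbp1, Pygl and Pklr. Over all genes, 6983 of 19350 had unadjusted p-values under 0.05 by the same edgeR test. No gene of the 9 separated the 6 KO from the 6 Het livers, which 9.35% of all genes did.

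**Figure D1:**
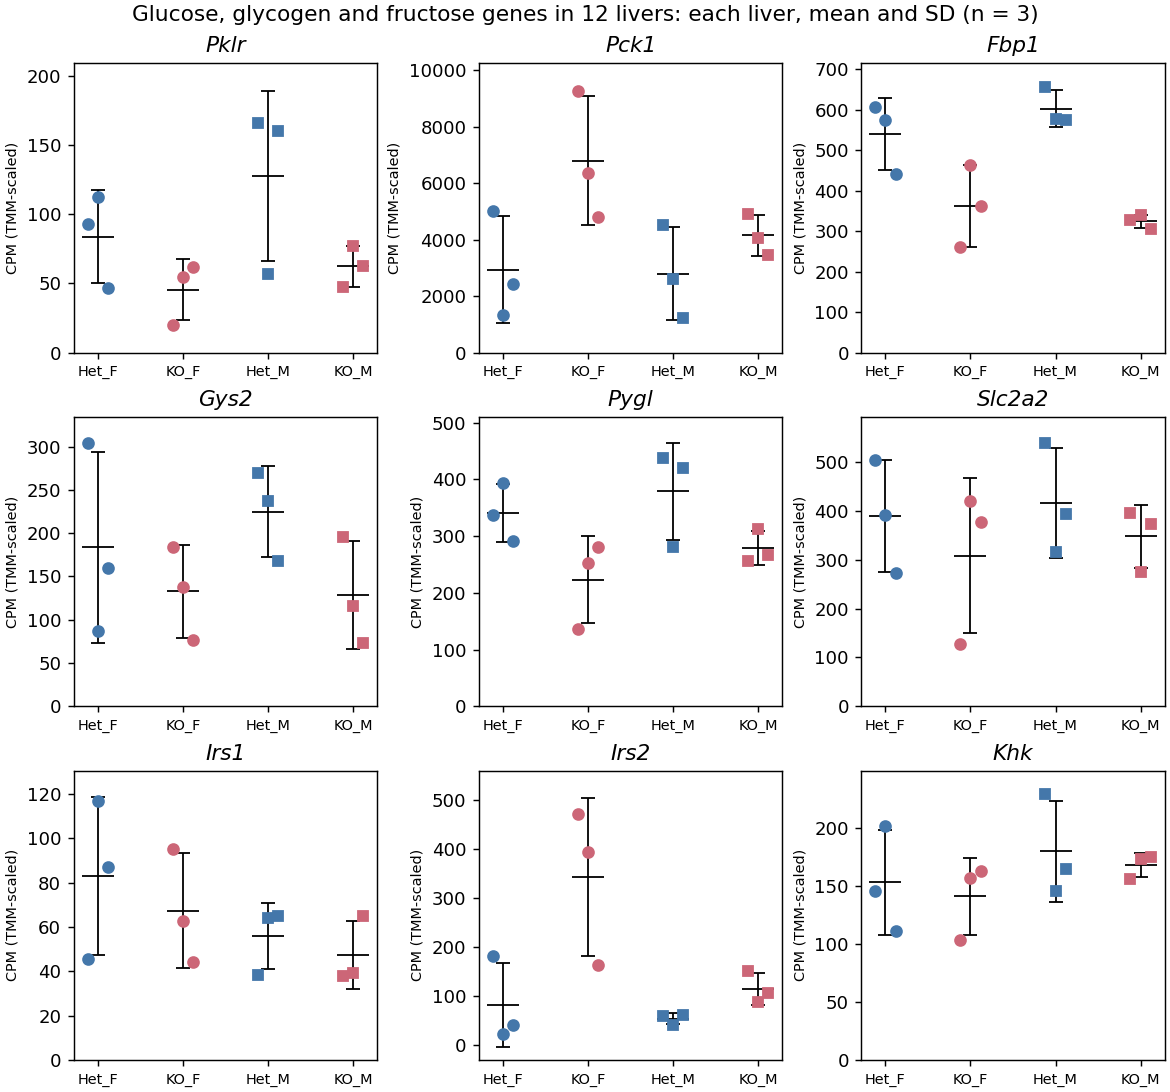
Each panel plots one gene in TMM-scaled CPM, with one point per liver (blue Het, red KO, circles females, squares males), a horizontal line for the mean and a bar for the SD of 3 mice. The Fbp1 levels of the KO males (305 to 339 CPM) lie below all Het livers, and the Irs2 levels of 2 KO females (393 and 472 CPM) lie above all others.

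Irs2 encodes the insulin receptor substrate that links the insulin receptor to PI3 kinase and whose transcript is known to be repressed by insulin. The Het females had 180.7 CPM (Het_F_111), 22.6 CPM (Het_F_115) and 39.8 CPM (Het_F_126), and the Het males 59.5, 40.7 and 59.9 CPM (Het_M_119, Het_M_125, Het_M_137). The KO females had 472, 393 and 163 CPM (KO_F_108, KO_F_112, KO_F_123), and the KO males 150.4, 87.7 and 105 CPM (KO_M_118, KO_M_122, KO_M_136). All KO livers were above 5 of the 6 Het livers, and Het_F_111 lay among the KO livers. The means were 67.2 ± 57.4 CPM in Het and 228.5 ± 162 CPM in KO (SD, n = 6). The log2 fold change was 1.59 (SE 0.48, adjusted p = 0.0405). The call did not survive every choice. The adjusted p was 0.0475 without Het_F_115, 0.0921 without KO_F_108, 0.0721 without KO_F_112 and 0.0779 without Het_F_126. Without Het_F_111 the log2 fold change grew to 2.27 (adjusted p = 0.0015). Leaving out any one of the males Het_M_119, Het_M_125, Het_M_137, KO_M_118, KO_M_122 and KO_M_136 also ended the call, with adjusted p-values between 0.0531 and 0.0875.

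Within females the Irs2 log2 fold change was 2.08 (SE 0.69, adjusted p = 0.0812), which did not pass, and Het_F_111 lay above the lowest KO female. Without Het_F_111 it was 3.44 (adjusted p = 0.00842). In males it was 1.1 (SE 0.68, adjusted p = 0.363), which did not pass. Each of the 3 KO males was above each Het male. The share of all genes that separate 3 from 3 livers was not counted. With only male livers in the fit the adjusted p in males was 0.0282. The 2 sexes were not shown to differ in this response, with an interaction of -0.98 (SE 0.95, adjusted p = 0.766). Irs2 was also the only one of the 9 with an unadjusted p under 0.05 between the sexes, beside 2678 of all 19350 genes. Its log2 male over female was -1.09 by edgeR's quasi-likelihood test (SE 0.48, adjusted p = 0.349), which did not pass.

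Irs1, the sister adaptor, did not share this difference. It ranged from 38.5 to 117 CPM in Het livers and from 37.9 to 95.3 CPM in KO livers, with means of 69.5 ± 28.7 and 57.4 ± 21.97 CPM (SD, n = 6). Its log2 fold change was -0.27 (SE 0.27, adjusted p = 0.501), and the highest level was in Het_F_115. On the length-corrected scale (TPM), Irs1 and Irs2 overlapped in Het livers, at 2.75 to 10.1 TPM and 2.85 to 22.7 TPM. In KO livers the lowest Irs2 level (9.86 TPM) was above the highest Irs1 level (8.56 TPM). The log2 ratio of Irs2 to Irs1 was 0.27 ± 1.5 in Het and 2.32 ± 0.73 in KO livers (SD, n = 6). It was above 0 in all 6 KO livers, from 1.23 to 3.19, and it spread from -1.82 (Het_F_115) to 2.53 (Het_F_111) in Het livers, so that the ratio too overlapped through 1 Het female.

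Both adaptor genes, and Khk, hold the palindrome CACGTG in the window from 250 bases before to 50 bases after their RefSeq start. CACGTG is the E-box core that clock and carbohydrate-responsive factors are known to bind. It was searched on both strands and is present in 7.15% of the 32851 windows of the same length in the table. The 3 stretches of 30 bases are shown, with the E-box in capitals, because they carry the same core beside genes with different genotype differences. They are RefSeq sequences of GRCm38.p6 and were each found once in GRCm39, at chr1:82269258-82269287 (minus strand), chr8:11058956-11058985 (minus strand) and chr5:31078820-31078849 (plus strand). The RefSeq starts of Irs1, Irs2 and Khk lie 178, 570 and 128 bases downstream of the GENCODE gene starts, so all 3 E-boxes lie inside the GENCODE gene spans.
Irs1: cagaggctccgtCACGTGttttgctcctct
Irs2: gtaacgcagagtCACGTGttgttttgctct
Khk: agcgttccccgtCACGTGacaccgttaatc
The core begins 44 bases before the RefSeq start of Irs2 and 71 bases before that of Khk, and lies farther upstream in Irs1. The match is a description of the letters in these windows and gives no binding.

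Fbp1 encodes the hepatic fructose-1,6-bisphosphatase, which removes a phosphate from fructose 1,6-bisphosphate late in gluconeogenesis. Its level was 607 CPM in Het_F_111, 575 CPM in Het_F_115 and 440.4 CPM in Het_F_126, and 656, 578 and 575 CPM in Het_M_119, Het_M_125 and Het_M_137. The KO females had 261, 464 and 361 CPM (KO_F_108, KO_F_112, KO_F_123) and the KO males 328, 339 and 305 CPM (KO_M_118, KO_M_122, KO_M_136). Only KO_F_112 rose above the lowest Het liver, Het_F_126, and the other 5 KO livers were below every Het liver. The means were 572 ± 71.6 CPM in Het and 343 ± 68.2 CPM in KO (SD, n = 6). The log2 fold change was -0.74 (SE 0.14, adjusted p = 0.00389), and it was -0.72 (adjusted p = 0.00842) without Het_F_115. The call held in all 28 alternatives, between -0.85 and -0.66 with 1 liver left out.

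In males Fbp1 fell by 0.90 on the log2 scale (SE 0.20, adjusted p = 0.02), and each KO male was below each Het male. The share of all genes that separate the males in this way was not counted. Without Het_F_115 the male adjusted p was 0.0244, and with the clock covariate it was 0.0412. The male call was lost without Het_M_119, Het_M_125, KO_M_118 or KO_M_136, with log2 fold changes between -0.94 and -0.84 over all single livers left out. In females the log2 fold change was -0.58 (SE 0.20, adjusted p = 0.0768), which did not pass, although it was called without KO_F_112. The sexes were not shown to differ (interaction -0.32, SE 0.28, adjusted p = 0.735). Male calls made up 4.47% of all genes in the higher and 2.98% in the lower direction, beside 0 and 1 of the 9. In females 5.94% were called higher and 5.1% lower, beside 0 of the 9 in each direction with edgeR. Of the 9, 4 had unadjusted p-values under 0.05 in females (Fbp1, Irs2, Pck1 and Pygl), beside 5608 of all 19350 genes. DESeq2 called 1 higher and 1 lower in females.

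**Figure D2:**
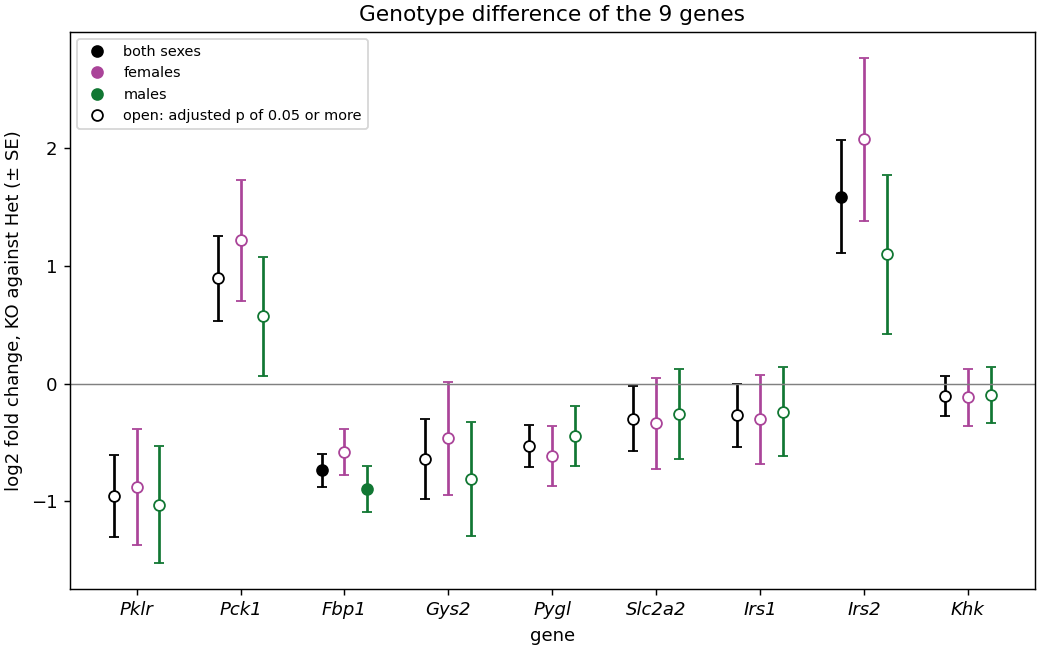
Log2 fold changes of KO against Het with their SE for each of the 9 genes, in both sexes together (black), females (purple) and males (green), with filled points for adjusted p-values under 0.05. Filled points are seen for Irs2 (1.59) and Fbp1 (-0.74) in both sexes and for Fbp1 in males (-0.90), and the SE bars of males and females overlap for each gene.

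Pck1, which makes phosphoenolpyruvate from oxaloacetate and is induced by glucagon and fasting, had the highest level of the 9. The Het females had 5021, 1328 and 2429 CPM (Het_F_111, Het_F_115, Het_F_126) and the Het males 4517, 2608 and 1234 CPM (Het_M_119, Het_M_125, Het_M_137). The KO females had 9259, 6355 and 4786 CPM (KO_F_108, KO_F_112, KO_F_123) and the KO males 4915, 4070 and 3447 CPM (KO_M_118, KO_M_122, KO_M_136). All KO livers were above 4 Het livers, and Het_F_111 and Het_M_119 lay among them. The means were 2856 ± 1591 CPM in Het and 5472 ± 2096 CPM in KO (SD, n = 6). The log2 fold change was 0.89 (SE 0.36, adjusted p = 0.0978), 1.22 (SE 0.51, adjusted p = 0.143) in females and 0.57 (SE 0.51, adjusted p = 0.539) in males, and none passed. Leaving out Het_F_111 or Het_M_119 brought the adjusted p for both sexes to 0.0298 and 0.045, and without Het_F_115 it was 0.161.

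The window around the Pck1 start (GRCm39 chr2:172994616-172994915, plus strand) is shown beside that of Fbp1 (chr13:63036047-63036346, minus strand) because both genes act in gluconeogenesis and had differences of opposite sign. Capitals mark GTTAAT, read on either strand as ATTAAC, which is a motif of the hepatocyte factor HNF1 and is present in 7.1% of all windows.
Pck1: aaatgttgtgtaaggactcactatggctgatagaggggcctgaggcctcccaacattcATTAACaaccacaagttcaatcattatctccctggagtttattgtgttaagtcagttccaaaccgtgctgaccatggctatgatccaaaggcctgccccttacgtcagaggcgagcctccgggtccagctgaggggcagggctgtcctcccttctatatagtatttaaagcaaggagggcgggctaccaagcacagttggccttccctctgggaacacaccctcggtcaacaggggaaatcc
Fbp1: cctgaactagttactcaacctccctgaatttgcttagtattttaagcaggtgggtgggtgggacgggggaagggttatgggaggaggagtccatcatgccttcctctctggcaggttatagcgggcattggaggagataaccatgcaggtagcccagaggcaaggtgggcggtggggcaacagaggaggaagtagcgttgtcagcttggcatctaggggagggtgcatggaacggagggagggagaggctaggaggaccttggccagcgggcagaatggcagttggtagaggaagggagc
The motif begins 192 bases before the Pck1 start, on the opposite strand. The Khk window holds 1 as well, overlapping none of its E-box and seen as the letters gttaat in the stretch above. Neither TGACGTCA, the full cAMP response element (1.79% of windows), nor TGTTTAC, a forkhead site (3.65%), was found as these letters in the windows of the 8 genes that the table holds. The Pck1 window does hold ttacgtca, which differs from TGACGTCA in 1 letter. The windows of Fbp1, Pygl, Slc2a2 and both starts of Pklr held none of the 4 motifs as exact letters, and Gys2 has no entry. Apart from ttacgtca in the Pck1 window, sites that differ from the motifs by any letter were not searched for. How many other windows hold such a near match was not counted. A window without a match, such as those of Pklr, may therefore still hold a site, and nothing is said of the factors. The Pygl window is set on a RefSeq start 3805 bases downstream of the GENCODE gene start.

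Pklr encodes the liver and red cell pyruvate kinase, which closes glycolysis and is known to be induced by glucose and insulin. The Het females had 92.8, 112.3 and 46.9 CPM (Het_F_111, Het_F_115, Het_F_126) and the Het males 166, 56.9 and 160.2 CPM (Het_M_119, Het_M_125, Het_M_137). The KO females had 20.2, 54.7 and 61.9 CPM (KO_F_108, KO_F_112, KO_F_123) and the KO males 47.8, 77.2 and 62.5 CPM (KO_M_118, KO_M_122, KO_M_136). Apart from Het_F_126 and Het_M_125, which lay among the KO livers, each Het liver was above all KO livers. The means were 106 ± 50.4 CPM in Het and 54.1 ± 19.3 CPM in KO (SD, n = 6). The log2 fold change was -0.96 (SE 0.35, adjusted p = 0.0766), which did not pass. It was called by DESeq2 (adjusted p = 0.0188) and without Het_F_126 (0.0471) or Het_M_125 (0.0322), while without Het_F_115 the adjusted p was 0.144. The mean length of the Pklr transcripts, as estimated counts over TPM relative to the Het mean, spread from 0.848 to 1.18 in Het and from 0.928 to 1.28 in KO livers. This was wider than for any other of the 9 genes, and Pklr has 2 RefSeq starts on chromosome 3.

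The opposite signs of Pck1 and Pklr, neither of which was called over both sexes, carry over into their ratio. The ratio restates those 2 differences and adds no evidence of its own. The log2 ratio of Pck1 to Pklr in TPM was 4.34 ± 1.09 in Het and 6.29 ± 1.29 in KO livers (SD, n = 6), a difference of 1.95. It ran from 2.698 (Het_M_137) to 5.59 (Het_F_111) in Het livers and from 5.18 (KO_M_122) to 8.75 (KO_F_108) in KO livers. The genotypes overlapped between 5.18 and 5.59. No test was made on the ratios, since the pairs were chosen with earlier results known.

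**Figure D3:**
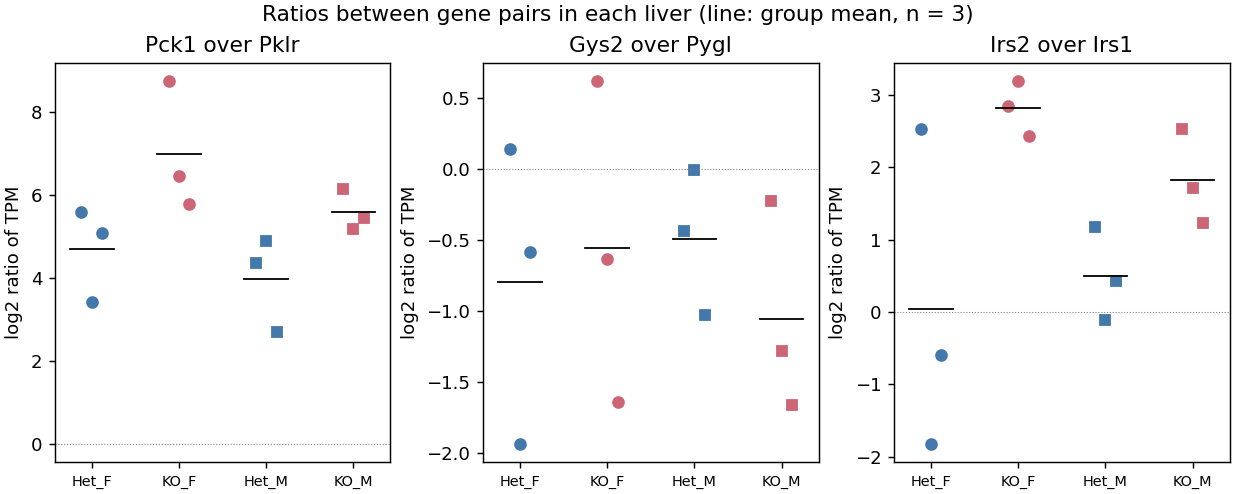
Log2 ratios of TPM for 3 gene pairs, with one point per liver (blue Het, red KO, circles females, squares males) and a line at each mean of 3 mice. The Irs2 to Irs1 ratio is at 1.23 or more in every KO liver and overlaps Het livers only through Het_F_111 (2.53), and the Gys2 to Pygl ratio overlaps between the genotypes (from -1.93 to 0.136 for Het livers, from -1.66 to 0.615 for KO livers).

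The glycogen genes Gys2 and Pygl had lower means in KO livers, and neither passed. Gys2, the liver glycogen synthase, ranged from 87.5 to 304 CPM in Het and from 72.9 to 196 CPM in KO livers, with means of 204 ± 80.3 and 130.5 ± 52.1 CPM (SD, n = 6). Its log2 fold change was -0.64 (SE 0.34, adjusted p = 0.206), with Het_F_111 highest and Het_F_115 lowest among the Het livers. Pygl, the liver glycogen phosphorylase, ranged from 281 to 438 CPM in Het and from 135 to 313 CPM in KO livers, with means of 360.2 ± 66.3 and 250.7 ± 60.6 CPM. Its log2 fold change was -0.53 (SE 0.18, adjusted p = 0.0522), and it was called in 7 of 28 alternatives, among them DESeq2 (adjusted p = 0.0263) and the fits without Het_F_126 (0.0495), Het_M_125 (0.0343) or KO_F_123 (0.0272). Each KO female was below each Het female in Pygl, a separation whose share over all genes was not counted, and the males overlapped. The log2 ratio of Gys2 to Pygl was -0.64 ± 0.76 in Het and -0.81 ± 0.90 in KO livers (SD, n = 6), a difference smaller than the spread.

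Slc2a2 and Khk, through which glucose and fructose enter hepatocyte metabolism, had the differences nearest 0 together with Irs1. Slc2a2, the transporter GLUT2, ranged from 274 to 539 CPM in Het livers and from 128 (KO_F_108) to 421 CPM in KO livers. Its log2 fold change was -0.30 (SE 0.27, adjusted p = 0.468), and it was -0.12 without KO_F_108. Khk ranged from 111.5 to 229 CPM in Het and from 103 (KO_F_108) to 174 CPM in KO livers, with a log2 fold change of -0.11 (SE 0.17, adjusted p = 0.686). Tkfc, the triokinase of the fructose pathway, had a log2 fold change of 0.05 (SE 0.28, adjusted p = 0.923). These errors are wide enough that a p past the threshold does not show equal levels.

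Read per length, the 9 transcripts spanned a wide range and kept nearly the same order in both genotypes. In Het livers the mean TPM were 890.2 ± 472 for Pck1, 311 ± 36.0 for Fbp1, 116 ± 27.7 for Slc2a2, 110.2 ± 28.4 for Khk and 98.0 ± 17.9 for Pygl. They were 66.3 ± 26.3 for Gys2, 42.1 ± 17.1 for Pklr, 7.97 ± 7.36 for Irs2 and 5.65 ± 2.65 for Irs1 (SD, n = 6 throughout). Pck1 was above Fbp1, and Fbp1 above Slc2a2, without overlap of the Het livers, and Pklr was above Irs2 in the same way. Slc2a2, Khk, Pygl, Gys2 and Pklr each overlapped the next in order, as did Irs2 and Irs1. In KO livers Khk (104 ± 17.5 TPM) came before Slc2a2 (88.7 ± 27.8 TPM) and Irs2 (27.2 ± 20.5 TPM) before Pklr (22.1 ± 8.67 TPM), and both pairs overlapped. The 3 small RNAs Rn7s1, Rn7s2 and Rn7sk held 50% to 59.9% of the TPM of each library, which lowers every TPM printed here.

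Neither sex nor the combination of sex and genotype gave a call among the 9 genes with edgeR, DESeq2 or limma. Over all genes 1.02% were called between the sexes and 0.0465% for the interaction. The lowest unadjusted p of the 9 for the interaction was 0.277 (Fbp1), and 0 of 9 were under 0.05, beside 1795 of all 19350 genes.

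Liver by liver, the 9 genes fell into groups that moved alike within the study's groups. Likeness was measured as Pearson's r of log2 CPM after subtracting each group's mean, over 12 livers that share library and scaling, as a description without a test. Pklr, Pygl, Khk, Slc2a2 and Fbp1 went together, with r of 0.95 for Pklr and Pygl, 0.86 for Pklr and Khk, and 0.86 for Fbp1 and Slc2a2. KO_F_108 was the lowest liver of the 12 for all 5 genes, and without it the r of Pygl and Slc2a2 dropped from 0.79 to 0.42 while that of Pklr and Pygl stayed at or above 0.95. Pck1, Gys2 and Irs2 formed a second set, with r of 0.85 for Pck1 and Gys2, 0.82 for Gys2 and Irs2, and 0.70 for Pck1 and Irs2. Het_F_111 was high and Het_F_115 low among the Het females in all 3. Without Het_F_111 the r of Pck1 and Irs2 was 0.47. Irs1 had a negative r with each of the other 8, between -0.60 and -0.28.

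The transcripts most like each gene by this measure, of 19350, included other metabolic genes. Pygl (r 0.953) and Rtn4ip1 (0.948) were nearest to Pklr, Gm41231 (0.982) and Ces2g (0.956) to Pygl, and Synpo (0.965) and Tkfc (0.963) to Khk. Prps2 (0.968) and Gm57050 (0.967) were nearest to Slc2a2, 4833439L19Rik (0.945) and Mmaa (0.944) to Fbp1, and Coq10b (0.952) and Fibp (0.951) to Gys2. For Pck1 they were Gm48203 (0.964) and Gm37370 (0.954), for Irs2 Gm56721 and Gm37728 (both 0.957), and for Irs1 Plpp6 (0.979) and Fbxo45 (0.96). With 12 livers and so many genes, high values arise for any gene, and nothing is read from them.

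**Figure D4:**
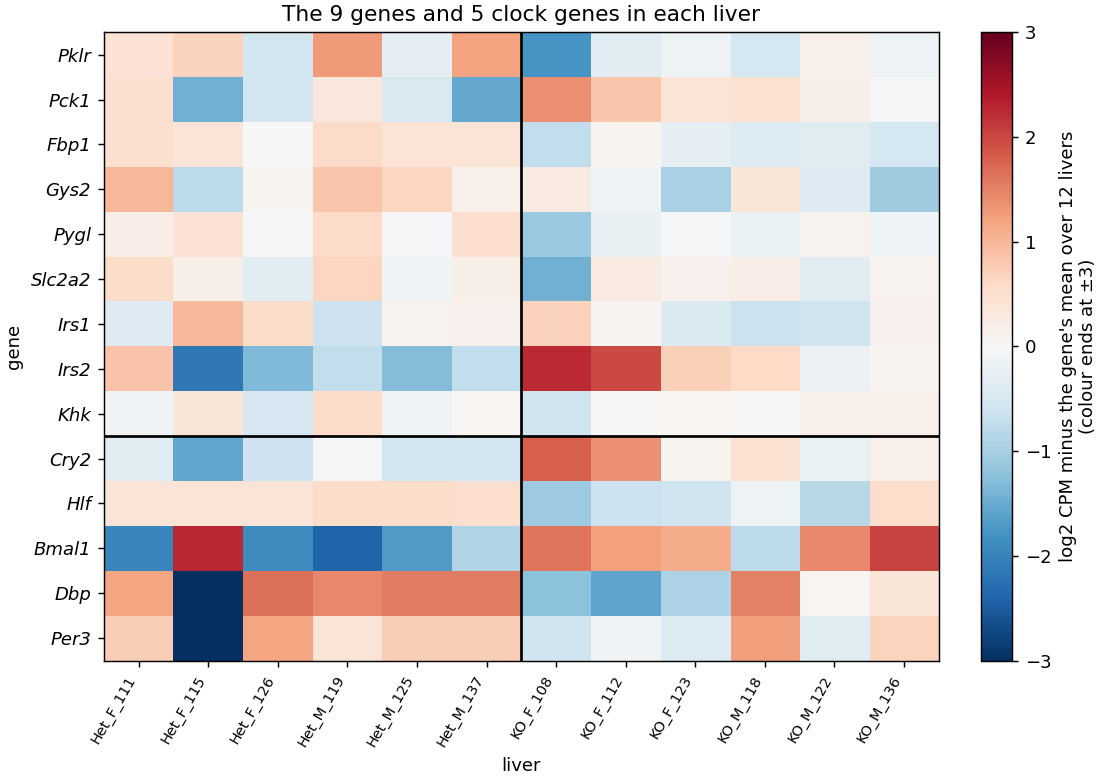
Colour gives log2 CPM minus each gene's mean over 12 livers (red above, blue below, colours ending at 3 in either direction), for the 9 genes and 5 clock genes, with Het livers left of the vertical line. Het_F_115 has Bmal1 and Dbp colours opposite to the other 5 Het livers, and KO_F_108 is the bluest column for Pklr, Pygl, Slc2a2 and Khk.

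The pathway around the 9 genes was read from 7 lists. Apart from the 9, they hold 132 tested genes, of which 23 were called higher and 21 lower, beside 12.2% and 10.2% of all genes. The same 2 shares stand beside the counts of each list below. With Irs2 and Fbp1 the lists hold 46 called genes, of which 43 were still called without Het_F_115 (Aldoc and Creb1, named below, were not) and 34 with the clock covariate, and all 46 had the same sign in both fits. Over all genes the number called was 4330, and it was 3881 without Het_F_115 and 3346 with the covariate, new calls included. Gluconeogenesis (16 genes) had 6 higher and 2 lower calls and a median log2 fold change of 0.46. Gpt, an alanine transaminase, rose by 0.65 (adjusted p = 0.00478), G6pc3 by 0.59 (0.00814) and Ldhb by 1.12 (0.0127). Gpt had means of 259 CPM in Het and 406 CPM in KO livers. G6pc3 (2.79 and 4.25 CPM) and Ldhb (1.18 and 2.62 CPM) were low transcripts. The 2 genes that fell were Fbp1 and Mdh1, the cytosolic malate dehydrogenase (-0.37, 0.0178). The other higher calls were Pck2, Slc37a4 and Got1, of which Slc37a4 carries glucose 6-phosphate into the endoplasmic reticulum. Pck2 was low too, at 1.30 to 3.54 CPM over the 12 livers. G6pc, the liver glucose-6-phosphatase that completes glucose release, ranged from 72.8 to 1003 CPM in Het livers and had a log2 fold change of 0.07 (SE 0.62, adjusted p = 0.952), and Pcx, pyruvate carboxylase, had one of 0.00194 (SE 0.11, adjusted p = 0.993).

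Glycolysis and its control (24 genes) had 6 higher and 1 lower call, with a median of 0.14. The genes that rose included Pkm, the pyruvate kinase of most other tissues (0.84, adjusted p = 0.00372), Hk2 (0.93, 0.0132) and Pfkfb1 (0.48, 0.0126), at 25.7, 3.79 and 28.1 CPM in KO livers. Gpi1, Aldoc and Pgk1 were the others. Hk1 had a log2 fold change of -0.32 (adjusted p = 0.306). Higher calls in this list came to 3 without Het_F_111, Het_M_125 or KO_M_136. Pkm and Hk2 are used by many non-hepatocytes. The macrophage markers, 5 of 9 called higher, moved in the same direction as both, and the endothelial markers, 5 of 8 called lower, in the opposite one, and the part of either shift was not tested.

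The glycogen list (25 genes) had 1 higher and 5 lower calls, with a median of -0.10. Phkb, a subunit of phosphorylase kinase, fell by 0.49 (adjusted p = 0.00954) and Gbe1, the branching enzyme, by 0.55 (0.0156), and Ugp2 and Stbd1 were among the others that fell. Gyg, the glycogenin that primes the particle, rose by 0.59 (0.0139), and without Het_F_115 the list had 2 higher calls. The extrahepatic paralogs Gys1 and Pygb had 0.36 (adjusted p = 0.343) and 0.28 (0.346). Ppp1r3b and Ppp1r3c, which bring protein phosphatase 1 to glycogen, had -0.74 (SE 0.32, adjusted p = 0.128) and -1.72 (SE 0.58, adjusted p = 0.0598).

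Fructose and polyol metabolism (8 genes) had 2 higher and 1 lower call, with a median of -0.03. Akr1b1, the aldose reductase that starts the polyol route to fructose, rose by 0.88 (adjusted p = 0.00261), Slc2a8 rose by 0.58 (0.00622) and Glyctk fell by 0.62 (0.0281). The call for Glyctk was lost without Het_F_111, Het_F_126, Het_M_137, KO_M_118 or KO_M_122. The fructose transporter gene Slc2a5 had -1.01 (SE 0.34, adjusted p = 0.0523). Among 11 tested hexose transporters 4 were called higher by edgeR, Slc2a1 (1.103, 0.00389), Slc2a8, Slc2a6 (1.22, 0.0196) and Slc2a3. The median over the list was 0.43, with 2 higher calls without Het_M_125. Slc2a6 (0.0976 to 1.21 CPM) and Slc2a3 (0.358 to 1.39 CPM) were low in all livers. Slc2a1, the GLUT1 of most cell types, was at 8.55 ± 2.30 CPM in Het and 19.5 ± 9.61 CPM in KO livers. It was called in females (1.68, adjusted p = 0.00764) and not in males (0.53, 0.297), and its interaction was not called (0.472). With edgeR 0 of the transporters were called lower, 1 (Slc2a5) had an unadjusted p under 0.05, and DESeq2 called 1 lower, as did the fit without Het_F_115.

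The insulin and glucagon list (38 tested genes) had 6 higher and 4 lower calls, with a median of 0.00602. Both counts are near the shares over all genes, 12.2% higher and 10.2% lower. Besides Irs2, those that rose were Rictor (0.51, adjusted p = 0.00496), Ptpn1 (0.36, 0.00939), Crtc2 (0.74, 0.0094), Trib3 and Socs3. Those that fell were Pik3r1, the regulatory subunit of PI3 kinase (-0.77, 0.00906), Creb1 (-0.39, 0.0278), the glucagon receptor gene Gcgr (-0.33, 0.0411) and Rptor. Lower calls came to 1 or 2 without Het_F_111, Het_F_126, Het_M_125, Het_M_137, KO_F_108, KO_F_112, KO_M_118 or KO_M_122. Insr, the insulin receptor, had a log2 fold change of -0.02 (SE 0.12, adjusted p = 0.942).

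Transcription factors of glucose genes (25) had 1 higher and 10 lower calls, with a median of -0.39. Cebpa fell by 1.104 (SE 0.15, adjusted p = 0.000586), Nr1h4 by 1.03 (0.00127) and Nr1h3 by 0.49 (0.00199), each without overlap of the 6 and 6 livers. They were named for their small p, and 9.35% of all genes separate the livers in this way. Mlxipl, which encodes the glucose sensor ChREBP, fell by 0.68 (SE 0.16, adjusted p = 0.0127), and Ppara, Mlx, Srebf1, Foxa1, Creb1 and Nr0b2 fell as well. The higher call was Crtc2, and without Het_M_119 there were 2. Foxo1 had 0.03 (SE 0.17, adjusted p = 0.925) and Ppargc1a, a coactivator of gluconeogenic genes, 1.63 (SE 0.58, adjusted p = 0.0704), with 4.16 to 51.9 CPM in Het and 27.4 to 220.3 CPM in KO livers. Of the 15 clock genes, Cry2 (1.27, adjusted p = 0.0107) and Nfil3 (1.24, 0.0175) were called higher over both sexes and Hlf (-0.87, 0.00664) lower. These counts are near the 12.2% and 10.2% of all genes called higher and lower. Nfil3 had 2.58 in females (adjusted p = 0.00949) and -0.11 in males (0.913). Cry2 had 2.01 in females (adjusted p = 0.0156) and 0.52 in males (0.469). Neither interaction was called (adjusted p = 0.244 for Nfil3 and 0.484 for Cry2). Without Het_F_115 the list had 4 higher and 2 lower calls.

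**Figure D5:**
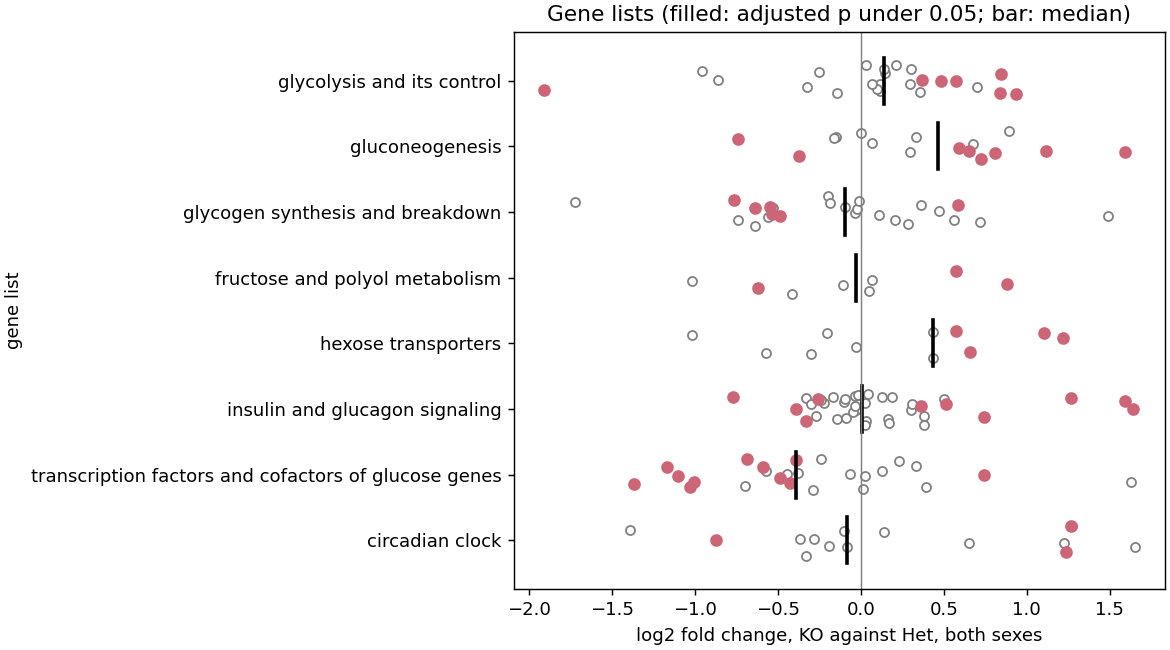
Each point is a gene of a list at its log2 fold change of KO against Het in both sexes, filled red where the adjusted p is under 0.05, with a black bar at the list's median. Of 25 transcription factors, 10 have filled points left of 0 and 1 right of 0 (median -0.39). Of 16 gluconeogenesis genes, 6 have filled points right of 0 and 2 left of 0 (median 0.46). Over all genes tested 12.2% were called higher and 10.2% lower.

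By the GENCODE M39 annotation of GRCm39, the genes lie as follows. Pklr (ENSMUSG00000041237.13) spans chr3:89043449-89054619, Slc2a2 (ENSMUSG00000027690.14) chr3:28752051-28785508, Pck1 (ENSMUSG00000027513.12) chr2:172994744-173001066 and Khk (ENSMUSG00000029162.16) chr5:31078775-31101479, all on the plus strand. On the minus strand, Fbp1 (ENSMUSG00000069805.11) spans chr13:63012567-63036263, Gys2 (ENSMUSG00000030244.8) chr6:142368339-142418841, Pygl (ENSMUSG00000021069.18) chr12:70237585-70278262, Irs1 (ENSMUSG00000055980.3) chr1:82210822-82269338 and Irs2 (ENSMUSG00000038894.8) chr8:11034681-11059499.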

How the data were processed

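Liver RNA of 12 mice was depleted of ribosomal RNA and sequenced as stranded paired reads. Per the labels and the study's methods, the authors ran the nf-core RNA-seq pipeline with STAR 2.7.9a on GRCm39 and Salmon 1.10.1, and deposited estimated counts per gene and TPM values. The deposited estimated counts were rounded to whole numbers. The deposited TPM, which keep no depth, served to compare levels between genes. The authors' other 2 tables of estimated counts, scaled and length-scaled, were used as alternatives.

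Genes needed 5 or more reads in 3 or more livers, once the libraries were brought to one size, and were fitted with edgeR 4.0.16 in R 4.3.3 (TMM scaling, quasi-likelihood test, prior count 2, robust) on 4 group means. The p-values were adjusted by Benjamini-Hochberg over all 19350 genes, and those under 0.05 were called. The contrasts were KO minus Het over both sexes, in females and in males, their difference (males minus females), and males minus females over both genotypes. SE were computed from the F statistic. Alternatives included DESeq2 1.42.0, limma 3.58.1 on log2(TPM + 1) and log2(TPM + 0.1), other filters and scalings, and leaving out each liver. The fit was tested on simulated data. Totals lay between 30044812 and 43634073, and no 2 livers agreed within sampling noise (66 pairs). Each liver is 1 mouse.

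The 9 genes, the gene lists and the motifs were chosen with earlier results of these data known, so the counts over them are descriptions. The text names the 9 genes, Xpa, 18 fixed partners and paralogs, up to 3 called genes of smallest p per list and direction, and the 2 genes most like each of the 9; some of these are not reported here. Other called genes of the lists, Bmal1 and Dbp, and a fit with their difference as a covariate, were chosen after their values were seen. The promoter windows are RefSeq sequences placed in GRCm39 by exact match. Protein sequences were not used here.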

Additional observations from a re-analysis of the deposited data

Results flagged for a closer look

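In 4 cases 1 of the 6 livers of a genotype lay far from the others, judged by its gap to the nearest liver over the whole range (against Dixon's 95% critical value for 6). Chance alone gives this in about 1 in 20 groups, and 18 groups were looked at. Fbp1 was low in Het_F_126, at 440.4 CPM, where the next Het liver had 575 CPM. Irs2 was high in Het_F_111, at 180.7 CPM, where the next had 59.9 CPM. Pygl and Khk were low in the same KO liver, KO_F_108, at 135.4 CPM and 103.1 CPM, where the next KO livers had 253 and 156 CPM.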

How the results depend on the processing

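Fbp1 kept its call over both sexes in all 28 alternatives, and Irs2 lost its call in 11 of them. Genes called higher over both sexes, 1 of 9, came to 0 without a filter on low counts and at an adjusted p under 0.01, to 2 with DESeq2, and to between 0 and 2 with 1 liver left out. Those called lower, 1, came to 2 with unrounded counts, with library size only and without interaction, to 3 with DESeq2, and to between 1 and 3 with 1 liver left out. In females the 0 higher calls became 1 with DESeq2 and both limma fits and 0 to 1 with 1 liver left out. The 0 lower calls in females became 1 with library size only, DESeq2 and both limma fits and 0 to 1 with 1 liver left out. In males 1 was called higher with only male livers in the fit, and the 1 lower call came to 0 at an adjusted p under 0.01 and to 0 to 1 with 1 liver left out. With the difference of Bmal1 and Dbp as a covariate, added after seeing the data and resting largely on Het_F_115, 2 were called higher over both sexes (Irs2 2.26, adjusted p = 0.016, and Pck1 1.36, 0.026) and 2 in females.

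Values with no call that changed sign lay near 0. With 1 liver left out, Khk ran from -0.21 to 0.00754 over both sexes, from -0.32 to 0.12 in females, where it was 0.0447 without KO_F_108, and from -0.23 to 0.11 in males. In females Gys2 ran from -0.81 to 0.0945, Slc2a2 from -0.62 to 0.018 and Irs1 from -0.65 to 0.0142. Khk in males was 0.0827 and 0.0836 with limma on log2(TPM + 1) and log2(TPM + 0.1). The cause was not tested. No scaling moved the median of all genes by more than 0.1. The number of genes called over both sexes, 4330, was 1778 at an adjusted p under 0.01 and 5045 with DESeq2. The Het mice are described as littermates, but the litter of each mouse is not given in the sources used here. Litter was therefore not part of any fit, and no paired analysis was made.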
